A study of Mus musculus with 7 samples.

Results

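The mRNA of 10 periportal hepatocyte enzymes that handle ammonia and glucose was compared between mouse livers with and without Rbpj. The genes are Cps1, Otc, Ass1, Asl and Arg1 of the urea cycle, Gls2, Hal and Sds, which release ammonia from amino acids, and Pck1 and G6pc of gluconeogenesis. They were chosen by name, as every non-control probe of the array whose gene name is one of them, which gave 12 probes for 10 of the 18755 genes tested. All 12 probes were well above background on all 7 arrays. RNA from whole liver of untreated C57BL/6J mice at the age of 4 weeks was measured, with 1 array per animal. The 4 Rbpj+/+ animals were AlfpCre- Rbpj flox/flox and the 3 Rbpj-/- animals were AlfpCre+ Rbpj flox/flox, so that the floxed allele is shared by both groups and the Cre transgene is found in the Rbpj-/- group alone. The Cre acts in the liver epithelium from embryonic life, the Rbpj-/- livers were cholestatic by their labels, the mice were smaller than their controls according to the study, and sex is not given per sample. In bulk tissue, fewer cells of a type and less RNA per cell cannot be told apart.

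Ammonia that reaches the liver through the portal vein is first met by periportal hepatocytes, which fix it as urea. CPS1 and OTC act in the mitochondrion and make carbamoyl phosphate and citrulline, ASS1 and ASL then build and split argininosuccinate in the cytosol, and ARG1 releases urea from arginine. What escapes is bound as glutamine by pericentral cells through glutamine synthetase (Glul). The same periportal cells deaminate glutamine (GLS2), histidine (HAL) and serine (SDS), and send carbon from amino acids and lactate into glucose through PCK1 and G6PC. Notch signals reach DNA through RBPJ, and in the liver they are best known for the formation of bile ducts.

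Values are log2 intensities minus the 75th percentile of the same array, so 0 stands for the 75th percentile of all probes. A difference is Rbpj-/- minus Rbpj+/+ in log2 with its standard error (SE), and a gene was called when its adjusted p, from limma with Benjamini-Hochberg adjustment over the 24548 probes tested, was below 0.1. A gene with several probes is represented by the brightest. The deleted gene itself was lower in the group labelled Rbpj-/-. Rbpj (mm9 chr5:54048503-54048562) read 0.97, 0.29, 0.33 and 0.81 in Rbpj+/+ animals 1 to 4 and -0.35, -0.78 and -0.48 in Rbpj-/- animals 1 to 3, without overlap. The difference was -1.13 (SE 0.24, adjusted p = 0.0115 by limma), and its sign held in 7 further settings, with -0.45 (adjusted p = 0.210 by limma) relative to hepatocyte markers. A second Rbpj probe, placed on chromosome 6 by the array's design, differed by -1.63 (adjusted p = 0.0723 by limma) with overlapping groups.

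All arrays lay on 1 slide, with the Rbpj+/+ arrays in the first row and the Rbpj-/- arrays in the second, so row and genotype cannot be told apart. The intensity at the 75th percentile was between 57.5 and 103 on the Rbpj+/+ arrays and between 118 and 143 on the Rbpj-/- arrays. On Rbpj+/+ array 2 and Rbpj-/- array 1 the dim probes were brighter than elsewhere, with median intensities of 18.7 and 29.6 against 4.99 to 7.75 on the other 5 arrays. Hepatocyte markers identified the tissue as liver and were lower in Rbpj-/- liver for 8 of the 11 tested, with a median difference of -0.68 and none higher. This shift depended on the scaling, as 2 were lower and 1 higher with a median of -0.11 when the arrays were quantile-normalized, and likewise with a median of -0.09 in the authors' series matrix. With another background correction (normexp), 7 were lower and 0 higher, with a median of -0.40. With the 75th percentile taken over the probes detected on all arrays, 8 were lower and 0 higher, with a median of -0.60. In the main scaling, the mean level of the hepatocyte markers was between 8.67 and 9.11 in Rbpj+/+ and between 8.23 and 8.34 in Rbpj-/- animals.

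Of the 10 genes, 1 was called lower (Otc) and 1 was called higher (Sds), while 8 did not pass the test. Over all genes tested, 19.5% were called lower and 14.6% higher. The genotypes overlapped for each of the 10 genes, while 36.6% of all genes did not overlap. The median difference of the 10 was 0.08, beside -0.13 over all genes tested and -0.68 over hepatocyte markers in the same scaling. The SD was larger in the Rbpj+/+ group for 9 of the 10 genes, as it was for 58.1% of all genes tested, and its median over the 10 was 0.55 in Rbpj+/+ and 0.30 in Rbpj-/- animals. The corresponding medians over all genes tested were 0.31 and 0.26.

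**Figure D1:**
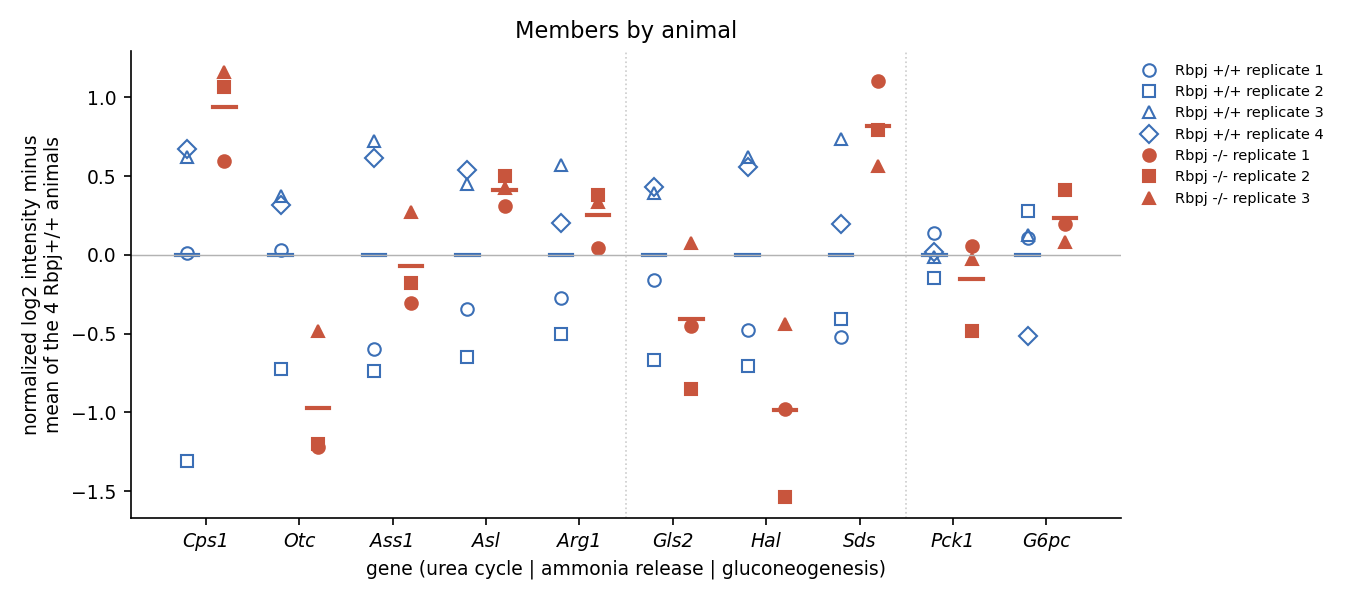
Normalized log2 intensity of each of the 10 genes in every animal, shown as the distance from the mean of the 4 Rbpj+/+ animals (y axis, log2) for the brightest probe of each gene (x axis), with Rbpj+/+ animals as open blue marks, Rbpj-/- animals as filled red marks and group means as bars. The 2 genotypes overlap for every gene, and Rbpj+/+ animal 2 is the lowest of its group in 8 of the 10.

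Among the genes of the urea cycle, the differences of the first and the second enzyme had opposite signs. Cps1 (mm9 chr1:67276029-67276088), which makes carbamoyl phosphate and sets the pace of the cycle, read 5.52, 4.20, 6.13 and 6.18 in Rbpj+/+ animals 1 to 4 and 6.10, 6.57 and 6.67 in Rbpj-/- animals 1 to 3. Rbpj+/+ animal 2 was far below the rest, and Rbpj-/- animals 2 and 3 were above every control. The difference was 0.94 (SE 0.45, 95% interval -0.09 to 1.97, adjusted p = 0.162 by limma), which did not pass the test. The interval reaches from almost no difference to nearly 2 log2 units.

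Otc, the X-linked enzyme that joins carbamoyl phosphate to ornithine, has 2 probes. The brighter one (mm9 chrX:9897267-9897326) read 7.001, 6.25, 7.35 and 7.29 in Rbpj+/+ animals and 5.75, 5.77 and 6.49 in Rbpj-/- animals. All Rbpj-/- animals but the third were below every control, and the third was above control 2. The difference was -0.97 (SE 0.32, 95% interval -1.68 to -0.25, adjusted p = 0.0557 by limma), and permuting the animals (exact, two-sided, 35 splits) gave p = 0.0857. The other probe, spotted 10 times and without a position in the array's design, read 4.14, 2.88, 3.95 and 4.15 in Rbpj+/+ and 3.03, 3.35 and 4.12 in Rbpj-/- animals. Its difference of -0.28 (95% interval -1.13 to 0.57, adjusted p = 0.613 by limma) did not pass the test, so the call of Otc rested on 1 of its 2 probes.

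The probe sequences behind the largest positive differences and behind the uncalled Otc measurement are shown. These sequences were not aligned to a transcript, so what they hybridised with was not tested, and an open reading frame does not settle it. They are printed 5′ to 3′ as the array's files give them, and each has at least 1 reading frame without a stop codon over its 60 bases.
Cps1: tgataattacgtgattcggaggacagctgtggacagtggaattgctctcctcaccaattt
Otc, probe without a position: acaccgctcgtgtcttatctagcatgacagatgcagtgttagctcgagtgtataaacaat
Sds: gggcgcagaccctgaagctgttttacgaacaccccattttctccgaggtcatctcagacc

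Ass1, which condenses citrulline with aspartate, did not pass the test. Its brighter probe (mm9 chr2:31375998-31376057) read 8.73, 8.59, 10.05 and 9.94 in Rbpj+/+ animals and 9.02, 9.15 and 9.60 in Rbpj-/- animals, all of which lay between the low and the high pair of controls. The difference was -0.07 (SE 0.40, 95% interval -0.97 to 0.83, adjusted p = 0.911 by limma). A second probe under the same name was placed on chromosome 10 by the array's design (mm9 chr10:61535238-61535297) and differed by -0.52 (adjusted p = 0.170 by limma), with Rbpj+/+ values of 8.87, 8.73, 9.60 and 9.47 and Rbpj-/- values of 8.50, 8.61 and 8.82. Which transcripts it hybridised with was not tested.

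The last enzymes of the cycle did not pass the test in the main scaling. Asl, which splits argininosuccinate into arginine and fumarate, read 5.04, 4.73, 5.84 and 5.92 in Rbpj+/+ and 5.70, 5.88 and 5.81 in Rbpj-/- animals. The Rbpj-/- animals were close to the upper pair of controls, and the difference was 0.41 (SE 0.31, 95% interval -0.28 to 1.11, adjusted p = 0.352 by limma). Arg1 (mm9 chr10:24636194-24636253), the liver arginase, read 6.96, 6.73, 7.81 and 7.44 in Rbpj+/+ and 7.28, 7.62 and 7.57 in Rbpj-/- animals. Here too the Rbpj-/- values fell inside the range of the controls, and the difference was 0.25 (SE 0.28, 95% interval -0.37 to 0.88, adjusted p = 0.530 by limma). For Cps1, Otc, Ass1, Asl and Arg1 the intervals were wide, so a p above the threshold does not show equal levels.

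**Figure D2:**
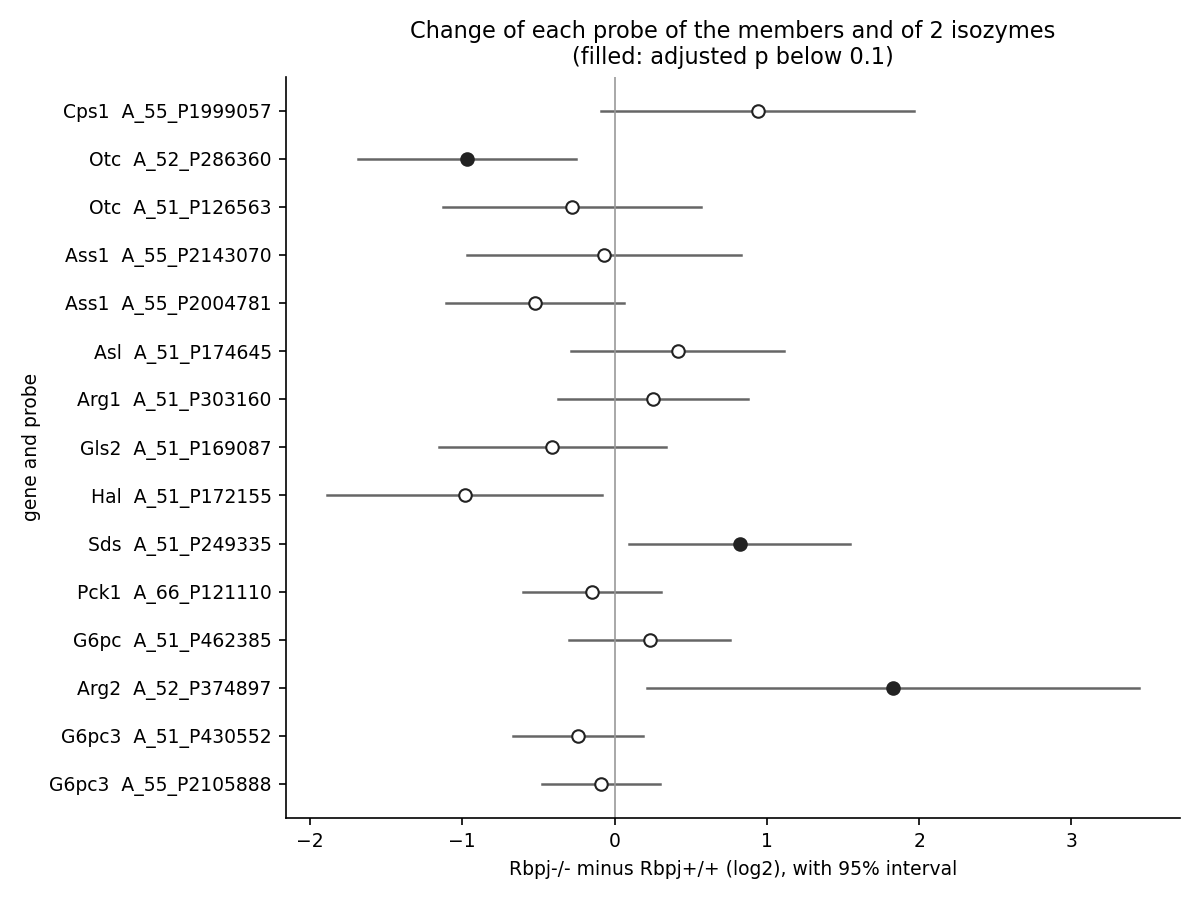
Difference between Rbpj-/- and Rbpj+/+ livers (x axis, log2) with its 95% interval for each tested probe of the 10 genes and of the isozymes Arg2 and G6pc3 (y axis), with filled points for an adjusted p below 0.1. Among the 12 probes of the 10 genes, the filled points are 1 Otc probe on the left and Sds on the right. The interval of Hal (-1.89 to -0.08) lies on the left as well, but its point is open (adjusted p = 0.105 by limma). Arg2, not well above background on 3 of 4 Rbpj+/+ arrays, has the widest interval shown.

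The ammonia-releasing enzymes split. Gls2 (mm9 chr10:127646830-127646889), the liver glutaminase, read 6.51, 6.00, 7.06 and 7.10 in Rbpj+/+ and 6.21, 5.81 and 6.74 in Rbpj-/- animals, with overlap and a difference of -0.41 (SE 0.33, 95% interval -1.15 to 0.33, adjusted p = 0.388 by limma). Hal (mm9 chr10:92979135-92979194), which removes ammonia from histidine, read 5.89, 5.66, 6.99 and 6.92 in Rbpj+/+ and 5.38, 4.83 and 5.92 in Rbpj-/- animals. Rbpj-/- animals 1 and 2 were below every control, and animal 3 was just above controls 1 and 2. The difference of -0.98 was as large as that of Otc but came with a larger SE of 0.40 (95% interval -1.89 to -0.08), and its adjusted p of 0.105 by limma missed the threshold.

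Sds (mm9 chr5:120933105-120933164), the serine dehydratase that turns serine into pyruvate and ammonia, was the 1 gene called higher. It read 4.29, 4.40, 5.55 and 5.01 in Rbpj+/+ and 5.92, 5.60 and 5.38 in Rbpj-/- animals, so that Rbpj-/- animals 1 and 2 were above every control and control 3 was above Rbpj-/- animal 3. The difference was 0.82 (SE 0.32, 95% interval 0.10 to 1.55, adjusted p = 0.0943 by limma), with an exact two-sided permutation p of 0.114. The call was lost when any 1 animal other than Rbpj+/+ animal 3 was left out, with a difference between 0.65 and 1.07 over the 7 such fits. It was also lost without Rbpj+/+ array 2 and Rbpj-/- array 1, at 0.54 (adjusted p = 0.329 by limma).

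The gluconeogenesis pair did not pass the test in either direction, and its intervals were the narrowest. Pck1 (mm9 chr2:172984307-172984366), which draws oxaloacetate into glucose synthesis, read 8.58, 8.30, 8.44 and 8.46 in Rbpj+/+ and 8.51, 7.96 and 8.42 in Rbpj-/- animals. With the smallest SD among the controls of the 10 genes (0.12), its difference was -0.15 (SE 0.20, 95% interval -0.60 to 0.30, adjusted p = 0.612 by limma). G6pc (mm9 chr11:101238947-101239006), the glucose-6-phosphatase that frees glucose for export, read 5.47, 5.65, 5.50 and 4.85 in Rbpj+/+ and 5.56, 5.78 and 5.45 in Rbpj-/- animals. Rbpj+/+ animal 4 was low for this gene alone, and the difference was 0.23 (SE 0.23, 95% interval -0.30 to 0.76, adjusted p = 0.493 by limma).

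How the arrays are brought to one scale decided several of these calls. Before any scaling, the intensities of 6 of the 10 genes (Cps1, Ass1, Asl, Arg1, Sds and G6pc) were higher in all Rbpj-/- than in all Rbpj+/+ animals, as were those of 38.3% of all genes tested, and none was lower in all. Unscaled Cps1 intensity was 4707, 1573, 4031 and 5436 in Rbpj+/+ and 9803, 12360 and 12030 in Rbpj-/- animals. Unscaled Arg1 intensity was 12810, 9097, 12870 and 12980 against 22110, 25520 and 22430. Unscaled Otc intensity of 13130, 6502, 9370 and 11710 overlapped with 7682, 7075 and 10600, although every Rbpj-/- array was brighter at its 75th percentile.

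With the 75th percentile taken over the probes detected on all arrays, 2 of the 10 genes were called higher, with quantile normalization 3, with normexp background correction 5 and with centring on the hepatocyte markers 6. Of all 18755 genes tested, 3396, 3116, 3403 and 9408 were called higher in these scalings, in the same order, beside 2741 in the main one. Over all genes tested, the share of higher among called genes was 42.8% in the main scaling, 52.2% with quantile normalization and 93.1% when centred on hepatocyte markers, which moved the median of all genes to 0.56. Cps1 was higher at 1.19 (adjusted p = 0.0636 by limma) with quantile normalization, 1.25 (0.0355) with normexp and 1.62 (0.0152) relative to hepatocyte markers. Arg1 was called higher with these scalings too, at 0.58, 0.58 and 0.94. Otc kept its sign in every setting tried, from -1.21 to -0.29, and was called in 12 of 20. Sds kept its sign as well, at 0.54 or more, and was called in 10 of 20. Hal was between -1.32 and -0.30 and called in 7 of 20. Ass1, Gls2 and Pck1 changed sign between scalings.

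**Figure D3:**
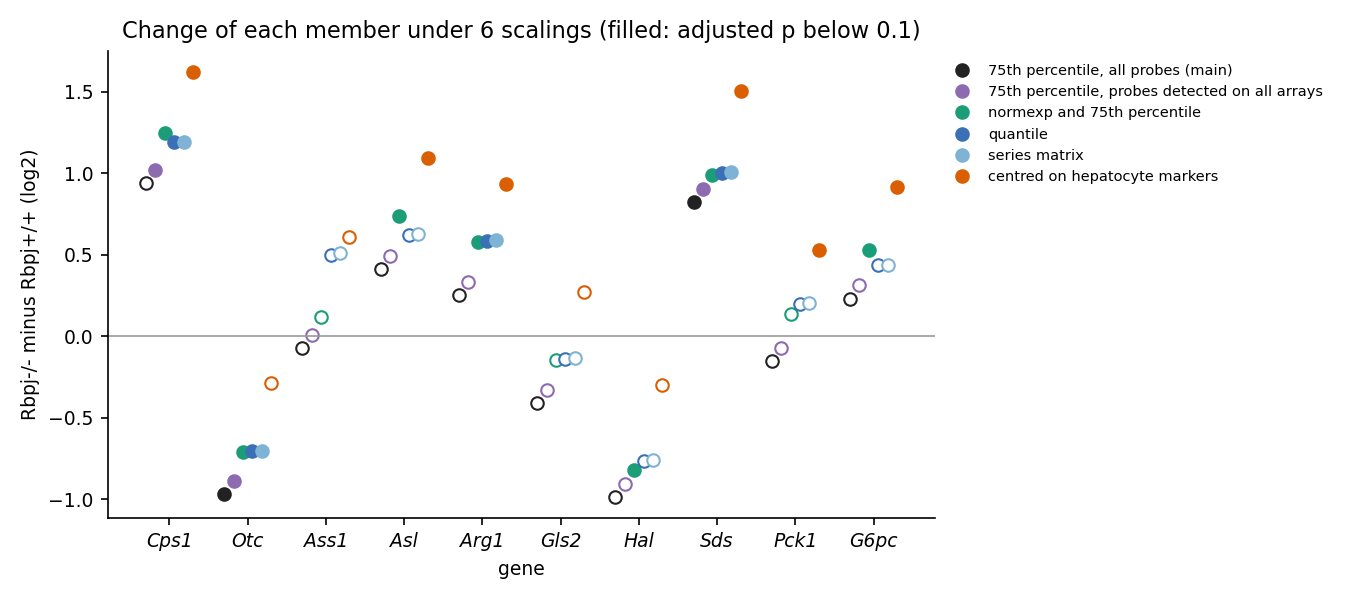
Difference between Rbpj-/- and Rbpj+/+ livers (y axis, log2) of each of the 10 genes (x axis) under 6 ways to scale the arrays, with filled points for an adjusted p below 0.1. Cps1, Asl, Arg1, Sds and G6pc lie above 0 and Otc and Hal below 0 in all 6, while Ass1, Gls2 and Pck1 lie on both sides.

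The difference between 2 genes within the same array is free of a shift of that whole array, although not of the background correction or of quantile normalization. The pairs below are given in the main setting alone. These pairs were looked at after the values of the genes were seen and are given as a description, without a test. Of the 45 pairs among the 10 genes, the within-array difference did not overlap between genotypes for 19. With 36.6% of single genes not overlapping and no such share known for pairs of other genes, this count is not a result about the 10. Cps1 minus Otc was -1.48, -2.05, -1.22 and -1.11 in Rbpj+/+ and 0.35, 0.80 and 0.18 in Rbpj-/- animals, so that the mean shifted by 1.91 and every Rbpj-/- animal was above every control. Otc minus Ass1, the following step, was between -2.70 and -1.73 in Rbpj+/+ and between -3.38 and -3.11 in Rbpj-/- animals, also without overlap. With the other Otc probe, Cps1 minus Otc was between 1.32 and 2.18 in Rbpj+/+ and between 2.56 and 3.22 in Rbpj-/- animals, again without overlap, but Otc minus Ass1 overlapped, as it did with the other Ass1 probe (shifts of -0.21 and -0.45). With the brightest probes, Ass1 minus Asl and Asl minus Arg1 overlapped, with shifts of -0.48 and 0.16.

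Otc and Hal, which act at different points of nitrogen metabolism, differed by nearly the same amount with the brighter Otc probe. Otc minus Hal was 1.12, 0.59, 0.36 and 0.37 in Rbpj+/+ and 0.37, 0.94 and 0.56 in Rbpj-/- animals, and its mean shifted by 0.02, while with the other Otc probe it shifted by 0.70 with overlap. Hal minus Sds was between 1.25 and 1.91 in Rbpj+/+ and between -0.78 and 0.55 in Rbpj-/- animals and shifted by -1.81. Gls2 minus Sds was between 1.51 and 2.21 in Rbpj+/+ and between 0.21 and 1.36 in Rbpj-/- animals. Pck1 minus G6pc overlapped, with a shift of -0.38.

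**Figure D4:**
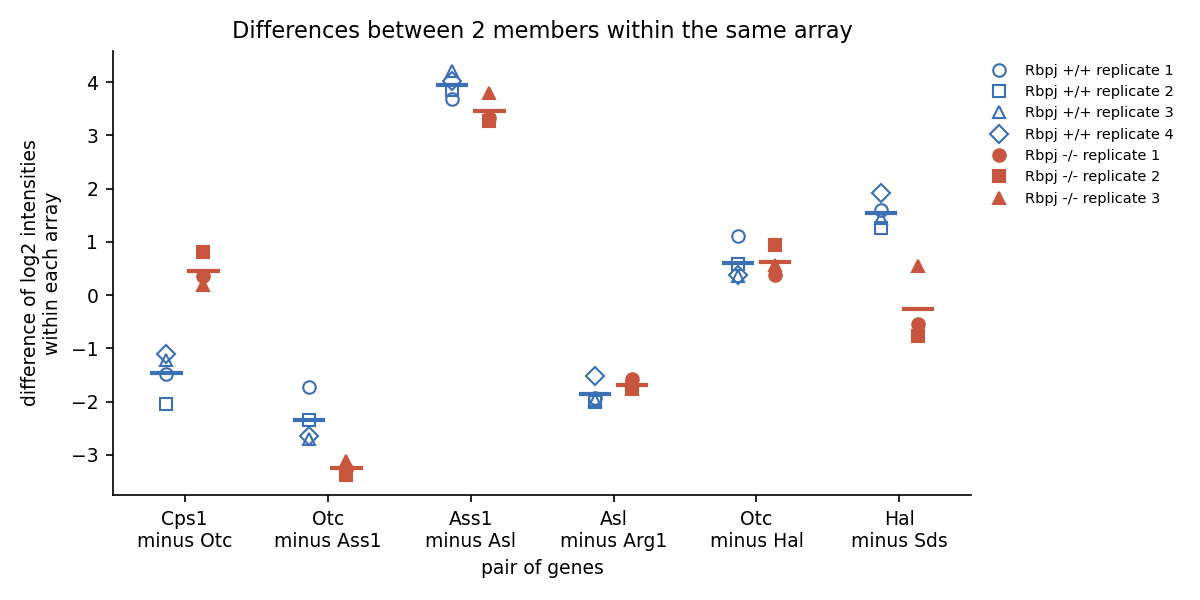
Difference of the log2 intensities of 2 genes within the same array (y axis, log2) for 6 pairs (x axis), by the brightest probe of each gene, with Rbpj+/+ animals as open blue marks, Rbpj-/- animals as filled red marks and group means as bars. The genotypes are apart for Cps1 minus Otc, Otc minus Ass1 and Hal minus Sds and overlap for Ass1 minus Asl, Asl minus Arg1 and Otc minus Hal.

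Liver-type enzymes were then set against the isozymes that other tissues or cells use. Arg2, the mitochondrial arginase, was detected (well above background) in 1 of 4 Rbpj+/+ and in all 3 Rbpj-/- animals, and entered the test through the latter. Its values of -5.77, -2.28, -4.71 and -4.77 in Rbpj+/+ overlapped with -1.94, -2.55 and -3.17. The fitted difference of 1.83 (adjusted p = 0.0946 by limma) was -0.08 with normexp background correction and is no measure of size against controls near background. Arg1 minus Arg2 likewise followed the background correction, with a shift of -1.57 in the main setting (exact two-sided permutation p = 0.2) and of 0.66 with normexp. G6pc minus G6pc3 shifted by 0.47 (exact two-sided permutation p = 0.0857, and 0.171 after adjustment over the 2 pairs), where 4 against 3 animals allow no p below 0.0286. G6pc3, the ubiquitous glucose-6-phosphatase, differed by -0.24 (adjusted p = 0.382 by limma). Pck2, the mitochondrial partner of Pck1, was well above background on no Rbpj+/+ array and on 2 of 3 Rbpj-/- arrays and was not tested. Beside the values of Arg2, macrophage markers were higher for 5 of 8 (Itgam was lower), with a mean level of 2.61 to 2.79 in Rbpj+/+ and 3.73 to 3.92 in Rbpj-/- animals, and proliferation genes for 7 of 7, with -0.98 to 0.50 against 1.95 to 2.39. Their part in the level of Arg2 was not tested.

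The other genes around these enzymes were read from lists. Of 14 further urea cycle and ammonia genes, 1 was lower and 1 higher, with a median of 0.00. Nags, which makes the N-acetylglutamate that CPS1 requires, rose by 0.67 (SE 0.24, adjusted p = 0.0712 by limma), without overlap between 2.52 to 3.31 in Rbpj+/+ and 3.43 to 3.79 in Rbpj-/- animals. Glul, the glutamine synthetase of pericentral cells, fell by 1.38 (SE 0.24, adjusted p = 0.00581 by limma), from 6.96 to 7.37 in Rbpj+/+ to 5.45 to 6.25 in Rbpj-/- animals. It was lower in all 7 further settings read for these lists, by 0.70 at the least. Car5a, the mitochondrial carbonic anhydrase that supplies bicarbonate to CPS1, differed by -0.94 (adjusted p = 0.105 by limma) and did not pass the test. The ornithine and aspartate carriers Slc25a15 (0.33) and Slc25a13 (-0.05), the aminotransferases Got1 (0.43), Got2 (-0.15), Gpt (0.44) and Gpt2 (0.01), and Glud1 (-0.35) did not pass it either.

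After Hal, the pathway takes histidine on to glutamate and a folate-bound carbon, and 2 of its next 3 enzymes were called lower in the main scaling. Ftcd fell by 1.13 (SE 0.25, adjusted p = 0.0138 by limma) and Amdhd1 fell by 0.81 (SE 0.32, adjusted p = 0.0954), while Uroc1 differed by -0.64 (adjusted p = 0.114). Ftcd was between 7.37 and 8.04 in Rbpj+/+ and between 6.29 and 6.84 in Rbpj-/- animals, and Uroc1 did not overlap between genotypes either. Ftcd was at -0.45 (adjusted p = 0.113) relative to the hepatocyte markers, at which scale Uroc1 was at 0.04 and Amdhd1 at -0.13. Amdhd1 was called in none of 7 further settings. Sdsl, the paralogue of Sds, differed by 0.48 (adjusted p = 0.164), and Agxt, which removes the amino group of serine and alanine onto glyoxylate, fell by 1.16 (adjusted p = 0.0375). Of 10 histidine and serine degradation genes in all, 3 were lower and none higher, with a median of -0.58, beside 2 and 1 with quantile normalization or normexp and 0 and 3 relative to the hepatocyte markers.

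**Figure D5:**
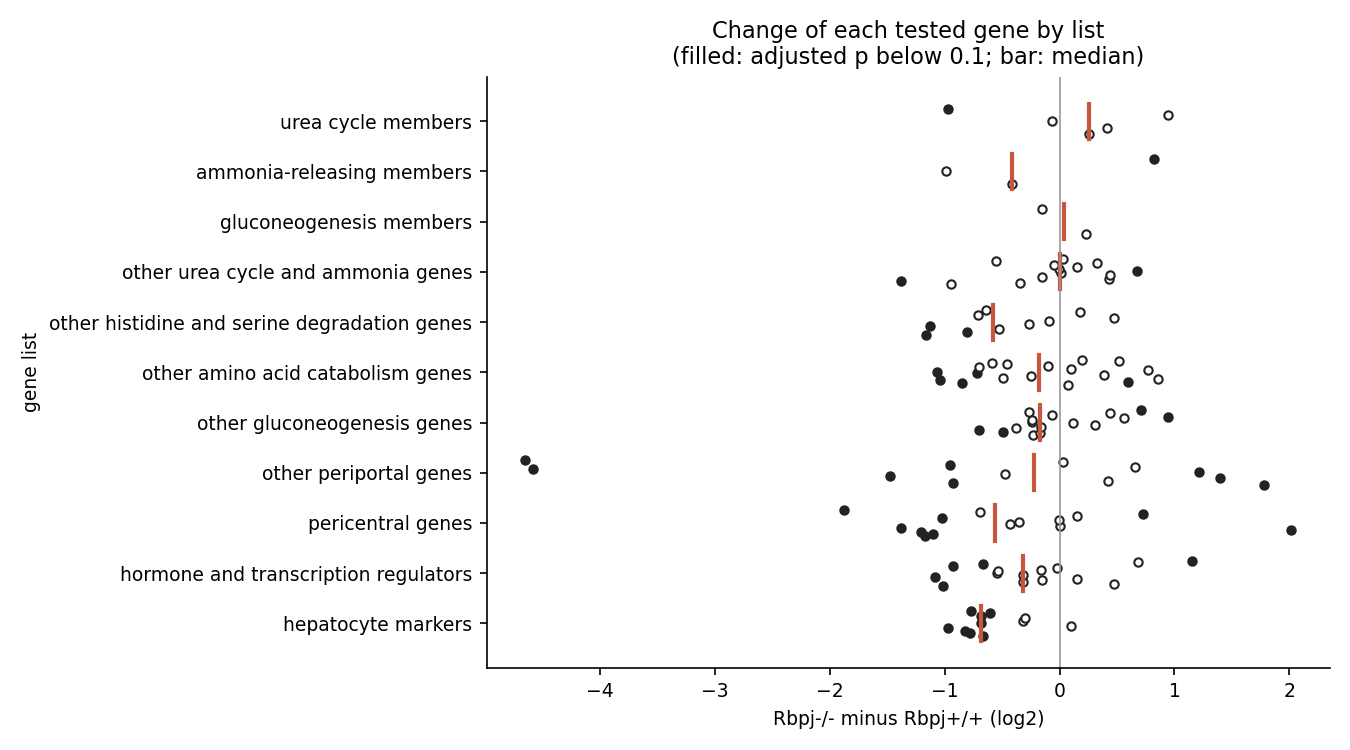
Difference between Rbpj-/- and Rbpj+/+ livers (x axis, log2) of every tested gene of 11 gene lists (y axis), with filled points for an adjusted p below 0.1 and a red bar at the median of each list. The 3 lists of the periportal enzymes straddle 0, with medians of 0.25, -0.41 and 0.04, while hepatocyte markers have a median of -0.68 and histidine and serine degradation genes of -0.58 in the scaling plotted (-0.11 and -0.43 with quantile normalization).

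Of 16 further genes of gluconeogenesis and its carriers, 2 were lower and 2 higher, with a median of -0.17. With quantile normalization 0 were lower and 6 higher. Gpd1 (-0.70) and Gapdh (-0.49) were called lower, and Pgk1 (0.94) and Tpi1 (0.71), which serve glycolysis as well, were called higher. Gapdh turned to 0.03 with quantile normalization. The cytosolic fructose bisphosphatase Fbp1 (-0.17, and 0.30 with quantile normalization), pyruvate carboxylase Pcx (-0.24) and the glucose-6-phosphate carrier Slc37a4 (-0.27) did not pass the test, and neither did the glucose transporter Slc2a2 (0.44). Of 18 other amino acid catabolism genes, 4 were lower and 1 higher, led by Haao (-1.06) and Cbs (-1.04). This split was 3 and 4 with quantile normalization, 4 and 4 with normexp and 0 and 8 relative to the hepatocyte markers.

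Among 15 regulators of these genes, 4 were lower and 1 higher, and the counts were the same with quantile normalization and in the series matrix. The genes called were not all the same. With quantile normalization Insr was called lower (-0.52, adjusted p = 0.0891 by limma) and Cebpa was not called (adjusted p = 0.137 by limma). The counts were 3 and 3 with normexp and 0 and 6 relative to the hepatocyte markers. At that last scale 698 of all 18755 genes tested were lower and 9408 higher. Gcgr, the glucagon receptor, fell by 1.08 (SE 0.20, adjusted p = 0.00784 by limma), from 7.26 to 7.49 in Rbpj+/+ to 5.97 to 6.58 in Rbpj-/- animals. Cebpa fell by 1.01, the small heterodimer partner Nr0b2 fell by 0.92 and the glucocorticoid receptor Nr3c1 fell by 0.67, while the salt-inducible kinase Sik1 rose by 1.15. Cebpa, Nr0b2 and Sik1 overlapped between genotypes, and Cebpa was called in none of 7 further settings. Relative to the hepatocyte markers Gcgr was at -0.40 (adjusted p = 0.144), Cebpa at -0.33, Nr0b2 at -0.24 and Nr3c1 at 0.01, and none of these passed the test. Ppargc1a (0.69), Foxo1 (0.16), Hnf4a (-0.32), Crtc2 (-0.32) and Cebpb (0.47) did not pass the test.

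Zonation genes other than the 10 moved in both directions. Slc7a2 of the periportal list and Glul, Oat and Rhbg of the pericentral list also stood among the urea cycle and ammonia genes above. Glul is therefore counted as lower in both places. Of 12 other periportal genes 5 were lower and 3 higher, with a median of -0.22. Sult5a1 and Igfals were called lower in the main scaling and in 7 further settings, with differences of -5.12 to -2.35 and of -4.68 to -2.98. The Sult5a1 value is bounded by background, as 1 of 3 Rbpj-/- arrays did not show it well above. In the main scaling, Aldh1b1 rose by 1.78 and Ctsc by 1.39. Of 14 pericentral genes 6 were lower and 2 higher, with a median of -0.56 (3 and 3 relative to the hepatocyte markers), led by Tbx3 (-1.88) and Cyp7a1 (2.02), the rate-limiting enzyme of bile acid synthesis. Beside these, cholangiocyte markers were higher for 2 of 5 (Spp1 and Sox9) and stellate and fibroblast markers for 6 of 8. Neutrophil markers were higher for 3 of 6 (Elane was lower) and endothelial markers for 3 of 7 (Kdr was lower). Lymphocyte markers were lower for 5 of 6. The part of all these markers in the levels of the 10 genes was not tested.

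The promoters of 5 of the 10 genes (Otc, Hal, Pck1, G6pc and Ass1) were found in the RefSeq table used (GRCm38.p6), and the 250 bases before the start were searched on both strands. The RBPJ site GTGGGAA was found in none of the 5 and in 5.42% of all 32851 promoters of the same length. The core of a cyclic AMP response element, TTACGTCA, was found in Pck1, 93 to 86 bases before the start, and in 0.447% of all promoters. The forkhead site TGTTTAC was in none of the 5 and in 3.17% of all, and TATAAA was in Hal and G6pc and in 12.4% of all. Otc and Hal are printed because their differences were alike with the brighter Otc probe, and Pck1 because it carries the motif of its known hormonal control. All are on the + strand and read 5′ to 3′, with the letters of a found motif in capitals.
Otc, chrX:10252055-10252304: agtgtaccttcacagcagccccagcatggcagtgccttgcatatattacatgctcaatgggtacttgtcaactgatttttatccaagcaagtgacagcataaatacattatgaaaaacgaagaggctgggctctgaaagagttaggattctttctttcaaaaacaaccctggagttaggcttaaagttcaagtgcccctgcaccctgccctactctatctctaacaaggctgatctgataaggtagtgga
Hal, chr10:93488518-93488767: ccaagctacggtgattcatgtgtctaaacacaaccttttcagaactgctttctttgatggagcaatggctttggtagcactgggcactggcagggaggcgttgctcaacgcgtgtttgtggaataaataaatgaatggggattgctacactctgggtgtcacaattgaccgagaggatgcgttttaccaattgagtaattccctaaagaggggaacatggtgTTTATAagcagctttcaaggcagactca
Pck1, chr2:173152823-173153072: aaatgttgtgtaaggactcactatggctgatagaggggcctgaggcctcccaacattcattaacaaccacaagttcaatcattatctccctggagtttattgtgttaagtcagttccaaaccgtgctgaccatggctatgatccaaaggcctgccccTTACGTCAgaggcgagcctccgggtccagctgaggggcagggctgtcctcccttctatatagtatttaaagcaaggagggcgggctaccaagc
The Hal and Otc windows share none of the motifs searched, and a match or its absence describes these letters alone.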

How the data were processed

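Whole-liver RNA of 4 Rbpj+/+ and 3 Rbpj-/- mice was measured on 1-colour arrays, 1 per animal. The deposited intensities are background-subtracted and detrended spot signals that the authors obtained with Agilent Feature Extraction 10.7.3.1, per the file headers, without normalization between arrays. The deposited log2 values of the series matrix, whose column medians are 0 on 6 arrays and -0.0039 on 1, have the median of each probe subtracted. They correlated at r = 1 with quantile-normalized log2 intensities centred likewise and at 0.776 to 0.876 with percentile-shifted ones, while the methods state a percentile shift, so their scaling is taken from the values. They were used as an alternative. The scanner files also hold spot quality marks deposited by the authors.

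Non-uniform spots, population outliers and control probes were removed (146 probe values). No saturated spot was found. Replicate spots were averaged in log2, each array was shifted to its 75th percentile, and probes well above background throughout at least 1 genotype were tested. Between 41.1% and 64.9% of probes were well above background per array, and precision is limited by how few arrays there are. The fit used limma 3.58.1 (R 4.3.3), and its p-values set the difference between genotypes against the spread between animals of the same genotype. Single values were compared by exact two-sided permutation over the 35 splits, whose smallest p is 0.0286. Isozyme pairs were compared as differences within an array. Means of lists are over their tested genes. Of the 12 hepatocyte markers, 11 were found on the array. Positions come from the array design (mm9), for which no annotation was used here, so exons were not assigned. Python 3.11.15, pandas 2.3.3 and matplotlib 3.10.9 served for sequences and figures.

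The text names every probe of the 10 genes, Rbpj, their isozymes, any gene of the lists of related enzymes and regulators, and up to 2 of the largest falls and rises in other lists. The genes and lists were chosen with earlier results of these data known. Alternatives were normexp correction with an offset of 50, quantile normalization, other percentiles and centrings, other filters, a threshold of 0.05, limma-trend, the series matrix, array weights, the mean of all probes, and arrays left out. On simulated data with nothing changed, 0 of 24511 probes were called. With 200 probes changed by 1.5 in log2, 142 of these were called, all in the planted direction, and 21 others. The simulated noise was drawn independently for each probe, and 1.5 is larger than any main difference of the 10 genes. In the data 8242 probes were called, so the simulated rates need not hold there. The results for 2 genes are not reported here.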

Additional observations from a re-analysis of the deposited data

Results flagged for a closer look

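In the 4 Rbpj+/+ animals, the Otc probe without a position in the array's design had 1 value far from the others. Rbpj+/+ animal 2 read 2.88 beside 3.95 to 4.15 in the other 3, a gap of 0.845 of the whole range of the group, above the critical value of Dixon's test for 4 samples. It was the 1 value of this kind among the 12 probes of the 10 genes, and chance gives about 1 in 20 groups. The same animal was the lowest control in 8 of the 10 genes and its array had brighter dim probes, and the part of this was not tested.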

How the results depend on the processing

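The number of the 10 genes called higher (1 in the report) was 2 with the percentile over detected probes, 3 with quantile normalization and with the series matrix, 5 with normexp, 6 centred on hepatocyte markers, and 0 with a threshold of 0.05, array weights, no filter for dim probes, or without the 2 arrays with bright dim probes. With 1 animal left out it was 0 to 1. The number called lower (1) was 2 with array weights, detection on all 7 arrays, limma-trend or normexp, and 0 with a threshold of 0.05, hepatocyte centring, the mean of all probes or no filter. With 1 animal left out it was 0 to 2. Without a filter, 671 genes were lower and 968 higher of 35666 tested, beside 3666 and 2741 of 18755. Of the 18755, 3239 were lower and 3396 higher with the percentile over detected probes, and 2848 and 3116 with quantile normalization. These counts were 2802 and 3100 in the series matrix, 4352 and 3403 with normexp, and 698 and 9408 with hepatocyte centring. Without the 2 arrays with bright dim probes, 3308 were lower and 2264 higher.

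Ass1 turned to 0.011 with the percentile over detected probes, 0.12 with normexp, 0.50 with quantile normalization, 0.51 in the series matrix and 0.61 centred on hepatocyte markers, and was between -0.32 and 0.17 with 1 animal left out. Pck1 turned to 0.13, 0.20, 0.20 and 0.53 with normexp, quantile normalization, the series matrix and hepatocyte centring, and was between -0.25 and 0.016 with 1 animal left out. Gls2 turned to 0.27 with hepatocyte centring. Otc lost its call without Rbpj+/+ animal 3 or 4 or Rbpj-/- animal 1 or 2 (-0.84 to -0.86). The cause was not tested.

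Arg1 minus Arg2 passed in opposite directions, at 0.66 with normexp and at -1.28 with quantile normalization. G6pc minus G6pc3 passed at 0.58 with normexp and 0.63 with quantile normalization. No paired analysis was possible because the replicate numbers only name the samples in accession order.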
